A study of Mus musculus with 5 samples.

Results

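The genes described here encode molecules by which leukocytes attach to the vessel wall and cross it. They were chosen by name, as 10 genes of leukocyte-endothelial adhesion, and each was taken from the probe set that carries its symbol alone in the platform annotation. Of the 10 genes, 9 were measured with 1 such probe set each, out of 21789 probe sets that carry 1 gene symbol (19938 genes). The gene of P-selectin, Selp, had no probe set under its symbol in the annotation used here and was not analysed here. Another 3 probe sets list Itgam together with the ribosomal protein gene Rpl35 and were left out.

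Transcripts of 5 transplanted C57BL/6 mouse hearts were measured, each on its own Affymetrix Mouse Gene 1.0 ST array. Donor hearts were placed in the abdomen of C57BL/6 recipients, so that the graft's own leukocytes and those of the recipient carry the same genome, and the methods give an age of 8 weeks for the mice. In the I/R group (n = 3, titled 2553, 2555 and 2557 and called I/R 1, I/R 2 and I/R 3 here) hearts were stored for 18 h at 4 °C in University of Wisconsin solution before implantation. In the non-I/R group (n = 2, titled 2554 and 2556 and called non-I/R 1 and non-I/R 2) hearts were implanted without that storage. The treatment text of all 5 samples describes the cold storage, and the groups were taken from the source name of each sample. Grafts were harvested at 24 h after transplantation per the labels, and the text and a figure legend of the study give day 2 for the arrays. All values are RMA signals on a log2 scale, on which a difference of 1 is a 2-fold difference, and fold changes are I/R over non-I/R. RNA came from whole grafts, so fewer cells of a type and less RNA per cell cannot be told apart. The p-values measure the spread between these 5 arrays, and the labels do not say whether grafts shared a day or a recipient litter.

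Leukocytes leave the blood in steps. Selectins on the endothelium (E-selectin, Sele, and P-selectin) catch sugar-bearing ligands on leukocytes, of which the product of Selplg, PSGL-1, is the best known, and the cells roll. Chemokines then switch leukocyte integrins such as LFA-1 (alpha chain Itgal) and Mac-1 (alpha chain Itgam) to a form that grips Icam1 and Icam2, while Vcam1 holds cells that carry the integrin alpha 4 chain. Crossing takes place at endothelial junctions, where Pecam1 and VE-cadherin, Cdh5, are found. Sele, Icam1 and Vcam1 are known as genes that inflammatory cytokines induce in endothelium through NF-kappaB.

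The promoters of Sele, Icam1 and Itgam are shown because they stand for both sides of this contact, a pair of cytokine-inducible endothelial genes whose groups overlapped and a leukocyte gene whose signal was higher in every I/R graft. They come from the RefSeq promoter table of GRCm38.p6, which held windows for 4 of the 10 genes, each with 250 bases before and 50 bases after the annotated start. Capitals mark matches, on either strand, to GGNNNTTCC (a shortened NF-kappaB motif), TGANTCA (AP-1) and CAGGAA (an ETS-type motif). The shortened NF-kappaB motif was added after the windows had been read.
Sele promoter, chr1:164047984-164048283, plus strand: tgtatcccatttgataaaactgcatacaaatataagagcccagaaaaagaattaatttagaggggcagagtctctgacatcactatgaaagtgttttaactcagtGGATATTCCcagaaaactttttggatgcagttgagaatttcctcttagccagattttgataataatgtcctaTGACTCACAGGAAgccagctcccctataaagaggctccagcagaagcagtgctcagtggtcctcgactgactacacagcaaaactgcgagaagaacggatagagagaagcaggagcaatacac
Icam1 promoter, chr9:21015690-21015989, plus strand: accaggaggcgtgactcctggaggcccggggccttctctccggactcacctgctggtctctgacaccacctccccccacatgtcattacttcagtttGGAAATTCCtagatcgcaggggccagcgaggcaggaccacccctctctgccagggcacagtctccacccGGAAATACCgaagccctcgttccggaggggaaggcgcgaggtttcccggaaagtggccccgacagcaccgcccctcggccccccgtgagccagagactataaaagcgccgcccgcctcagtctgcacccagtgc
Itgam promoter, chr7:128062390-128062689, plus strand: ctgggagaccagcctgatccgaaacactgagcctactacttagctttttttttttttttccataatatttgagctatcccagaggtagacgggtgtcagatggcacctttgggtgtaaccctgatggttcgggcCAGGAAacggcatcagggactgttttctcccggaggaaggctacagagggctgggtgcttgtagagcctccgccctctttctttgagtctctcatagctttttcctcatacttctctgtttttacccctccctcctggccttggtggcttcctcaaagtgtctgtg
With the start as base 0, the Sele window held the shortened NF-kappaB motif at -145 to -137, an AP-1 match at -73 to -67 and a CAGGAA directly after it at -66 to -61. The Icam1 window held the shortened NF-kappaB motif at -153 to -145 and, on the minus strand, at -84 to -76, and the Itgam window held a CAGGAA at -116 to -111. Of all 32851 windows in the table, 18.5% held GGNNNTTCC, 7.81% held TGANTCA and 30.6% held CAGGAA. The full NF-kappaB consensus, present in 8.46% of all windows, the ETS motif CCGGAAG (8.86%) and the GATA-type AGATAA (11.2%) were not in these 3 windows. A match is a description of the letters only.

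Genes of the leukocyte side had higher signals in the I/R grafts, and genes of the endothelial side differed little. Selplg had a log2 fold change of 1.02, Itgam 0.83 and Itgal 0.62, and for each of them all 3 I/R grafts lay above both non-I/R grafts. The 6 measured genes carried mainly by endothelium had log2 fold changes between -0.19 for Vcam1 and 0.14 for Icam1, and in all 6 the groups overlapped. By limma, 1 of the 9 genes, Selplg, passed an unadjusted p of 0.05, the study's threshold, against 15% of all probe sets tested (7.64% higher and 7.35% lower in I/R). Selplg was also the only one at both 2-fold and an unadjusted p of 0.05, against 1.5% of all probe sets (0.496% higher and 1% lower). Groups did not overlap in 3 of 9 genes, all higher in I/R, against 31.9% of all probe sets (15.8% higher and 16.2% lower). The count of 3 of 9 is thus close to the share over all probe sets. The median log2 fold change of the 9 genes was 0.13, against -0.0079 for all probe sets tested, and 7 of the 9 had a higher mean in I/R, against 44% of all probe sets. No probe set of the array passed an adjusted p of 0.05, the smallest adjusted p being 0.18. The split of 3 grafts against 2 has 10 arrangements, and an exact two-sided permutation test can reach 0.1 at the lowest.

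**Figure D1:**
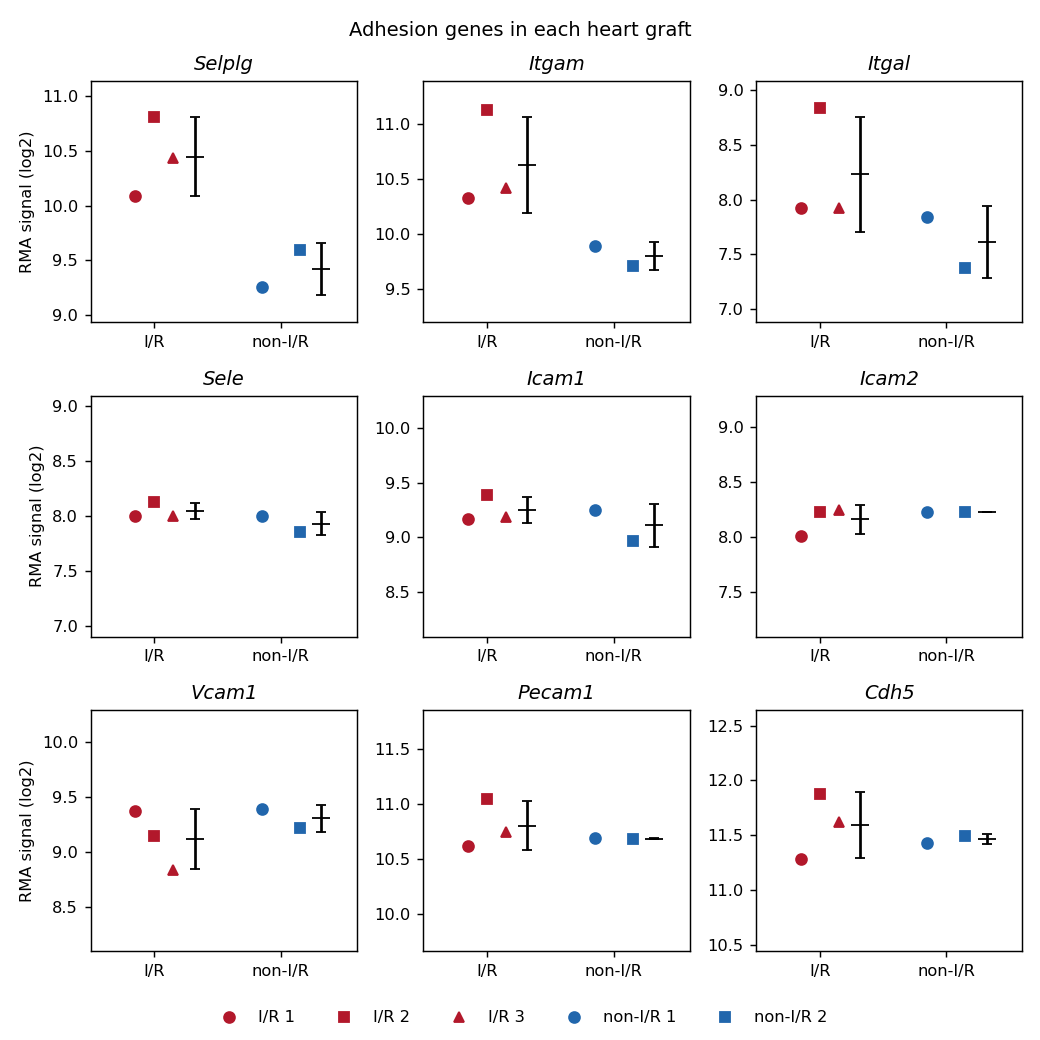
RMA signal (log2, y axis, with the same span in every panel) of the 9 measured adhesion genes in each graft, red for I/R (n = 3) and blue for non-I/R (n = 2), and the mean with its SD drawn as black bars. All I/R points are above both non-I/R grafts for Selplg, Itgam and Itgal, and the groups overlap in the other 6 panels.

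Selplg encodes PSGL-1, the mucin-like ligand on leukocytes that selectins bind. Its signals were 10.09, 10.81 and 10.44 in I/R 1, I/R 2 and I/R 3, against 9.25 and 9.59 in non-I/R 1 and non-I/R 2. Every I/R graft was above both non-I/R grafts. The mean was 10.44 ± 0.36 (SD, n = 3) in I/R and 9.42 ± 0.24 (SD, n = 2) in non-I/R, a 2.03-fold difference (log2 fold change 1.02, SE 0.26, 95% interval 0.28 to 1.76). The p from limma was 0.019 unadjusted and 0.29 adjusted over all probe sets, and the exact permutation p was 0.1, the smallest possible. Of all probe sets, 0.55% had a higher log2 fold change. The study's own gene list at 2-fold, which was made on these arrays, holds Selplg, so the call is not independent evidence. With 1 graft left out the log2 fold change lay between 0.84 (without I/R 2) and 1.20 (without I/R 1). The call was lost in 3 of these fits, with an unadjusted p of 0.065 (I/R 3 left out), 0.11 (non-I/R 1 left out) and 0.057 (non-I/R 2 left out).

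Itgam encodes the alpha chain of Mac-1 (CD11b), which is carried by neutrophils, monocytes and macrophages. Its signals were 10.33, 11.13 and 10.42 in I/R 1 to 3, against 9.89 and 9.71 in non-I/R 1 and 2. All I/R grafts were above both non-I/R grafts, and I/R 2 stood above the other I/R grafts. The log2 fold change was 0.83 (SE 0.29, 95% interval -0.0063 to 1.66, a 1.77-fold difference), with an unadjusted p of 0.051 and an adjusted p of 0.34 by limma and an exact permutation p of 0.1. Without I/R 2 it was 0.58 (unadjusted p 0.0097). The p ranged from 0.0097 to 0.21 over the fits with 1 graft left out.

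Itgal encodes the alpha chain of LFA-1 (CD11a), which is found on lymphocytes and other leukocytes. Its signals were 7.93, 8.83 and 7.93 in I/R 1 to 3, against 7.84 and 7.38 in non-I/R 1 and 2, and I/R 1 and I/R 3 had the same value. The groups did not overlap, but I/R 1 and I/R 3 lay just above non-I/R 1, and I/R 2 alone was far above. The log2 fold change of 0.62 (SE 0.38, 95% interval -0.45 to 1.69, unadjusted p 0.18) was 0.32 without I/R 2.

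The shared beta chain of both integrins, Itgb2 (CD18), was in a companion list of leukocyte integrins and the proteins that activate them. Its signals were 9.88, 10.19 and 9.80 in I/R 1 to 3, against 9.56 and 9.31 in non-I/R 1 and 2, with a log2 fold change of 0.53 (SE 0.16, unadjusted p 0.031 by limma). As for Itgam and Itgal, I/R 2 was the highest graft and non-I/R 2 the lowest. Of the 22 genes of that list, 18 had higher mean signals in I/R, and the median log2 fold change was 0.40. By limma, 5 of the 22 passed an unadjusted p of 0.05 as higher and 0 as lower, against 7.64% and 7.35% of all probe sets. The 3 with the smallest p were the integrin alpha V chain Itgav (0.41, p 0.00098), the alpha 6 chain Itga6 (0.69, p 0.0075) and the small GTPase Rap1b (0.44, p 0.010), which relays activation to integrins. These 3 genes are used by many cell types beside leukocytes. The integrin alpha 4 chain Itga4, the partner of Vcam1, had signals of 8.32, 8.34 and 7.95 in I/R 1 to 3, against 8.14 and 7.74 in non-I/R 1 and 2, and its groups overlapped.

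On the endothelial side, Sele had the narrowest interval. Its signals were 8.004, 8.128 and 8.004 in I/R 1 to 3, against 8.004 and 7.855 in non-I/R 1 and 2. The same value, 8.0037, stood on 3 arrays (I/R 1, I/R 3 and non-I/R 1), so that the gene had only 3 different values. The log2 fold change was 0.12 (SE 0.071, unadjusted p 0.18), and the 95% interval of -0.084 to 0.32 leaves out a 2-fold difference in either direction. The log2 fold change of Sele was 0.042 without non-I/R 2 and 0.19 without non-I/R 1. Whether Sele was above background on these arrays was not tested.

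Icam1, the ligand of both LFA-1 and Mac-1, had signals of 9.17, 9.39 and 9.19 in I/R 1 to 3, against 9.25 and 8.97 in non-I/R 1 and 2. The 2 non-I/R grafts were farther apart than the group means. The log2 fold change of 0.14 (SE 0.12, 95% interval -0.21 to 0.49, unadjusted p 0.32) was 0.0012 without non-I/R 2 and 0.28 without non-I/R 1. Icam2, which resting endothelium and platelets carry, had signals of 8.01, 8.23 and 8.25 in I/R 1 to 3, against 8.23 and 8.23 in non-I/R 1 and 2. The value of I/R 2 was equal to that of both non-I/R grafts, and the log2 fold change was -0.068 (SE 0.090, 95% interval -0.32 to 0.19, unadjusted p 0.49). Vcam1, which endothelium shows after cytokine exposure and which some stromal cells also carry, had signals of 9.38, 9.15 and 8.83 in I/R 1 to 3, against 9.39 and 9.22 in non-I/R 1 and 2. It was the 1 endothelial gene with 2 I/R grafts below both non-I/R grafts, and its log2 fold change was -0.19 (SE 0.19, 95% interval -0.72 to 0.35, unadjusted p 0.38). It was -0.045 without I/R 3 and -0.32 without I/R 1.

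Pecam1 and Cdh5 are commonly used as markers of endothelium, but the cells that gave their signals were not identified here. Pecam1 had signals of 10.62, 11.05 and 10.75 in I/R 1 to 3, against 10.69 and 10.68 in non-I/R 1 and 2, and Cdh5 had 11.28, 11.88 and 11.62 in I/R 1 to 3, against 11.43 and 11.50 in non-I/R 1 and 2. In both genes I/R 1 was the lowest of all grafts and I/R 2 the highest, so that the I/R grafts enclosed the non-I/R grafts. The log2 fold changes were 0.12 for Pecam1 (SE 0.15, 95% interval -0.30 to 0.53, unadjusted p 0.47) and 0.13 for Cdh5 (SE 0.20, 95% interval -0.44 to 0.69, unadjusted p 0.56). They were -0.0038 and -0.015 without I/R 2. The intervals of all 6 endothelial genes leave out a 2-fold difference in either direction, and none of them leaves out 0.

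**Figure D2:**
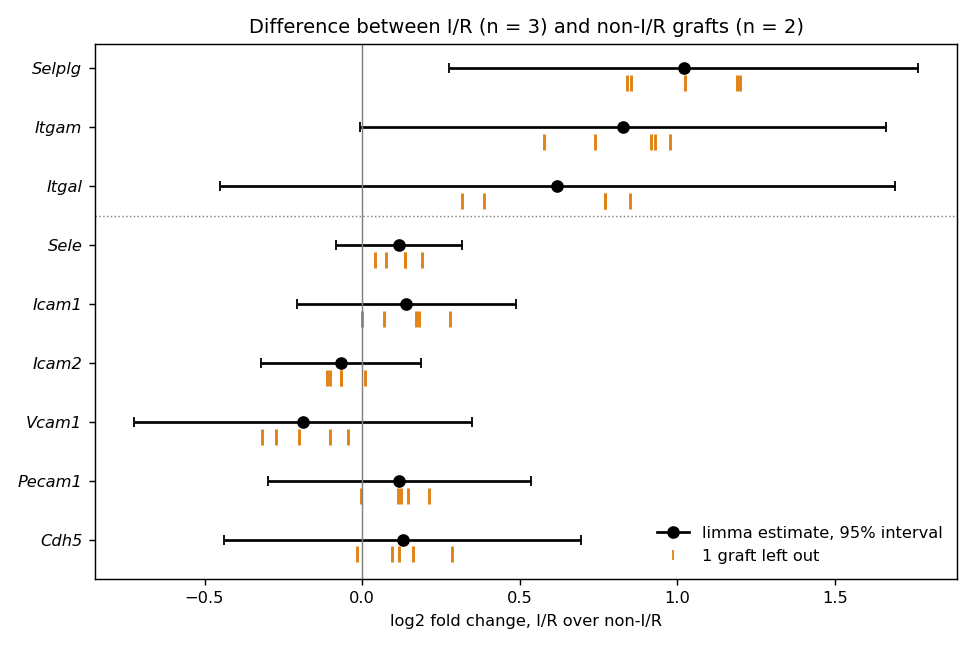
Log2 fold change of I/R (n = 3) over non-I/R grafts (n = 2) (x axis) for the 9 genes (y axis), as the limma estimate with its 95% interval in black, and the estimates with 1 graft left out as orange marks. Leukocyte genes stand above the dotted line and endothelial genes below it. The interval of Selplg, 0.28 to 1.76, leaves out 0, and those of the other 8 genes hold it.

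Pan-leukocyte and neutrophil markers differed between the groups in the same direction as Selplg, Itgam and Itgal, while macrophage and T and NK cell markers had medians near or below 0. All 8 pan-leukocyte markers had higher mean signals in I/R, and the median log2 fold change was 0.56. By limma, 6 of the 8 passed an unadjusted p of 0.05 as higher, against 7.64% of all probe sets. The signals of these 8 genes, summed on the linear scale, lay between 11282 and 14812 units in the I/R grafts and between 8753 and 10012 in the non-I/R grafts. Ptprc (CD45), the general marker of leukocytes, had 9.54, 9.87 and 9.55 in I/R 1 to 3, against 9.14 and 9.04 in non-I/R 1 and 2 (log2 fold change 0.56, unadjusted p 0.013 by limma). Of 13 measured neutrophil markers, 10 had higher mean signals, 6 passed as higher and 0 as lower, with a median of 0.79 and summed signals of 9026 to 16274 units in I/R and 5001 to 6754 in non-I/R. Ly6g, the defining surface marker of mouse neutrophils, had 7.953, 8.047 and 7.995 in I/R 1 to 3, against 7.468 and 7.034 in non-I/R 1 and 2. The largest log2 fold change of the list was that of the protease gene Mmp9 (1.45, unadjusted p 0.021 by limma). Those of the G-CSF receptor gene Csf3r (1.36, unadjusted p 0.040), Cxcr2 and S100a9 were also above the 1.02 of Selplg. The granule genes Mpo and Elane, which are transcribed in the bone marrow precursors, had log2 fold changes of -0.12 and -0.13 with overlapping groups. Their signals, between 5.61 and 6.17, were below the lowest array median of 6.58. The paper reports increased myeloperoxidase in I/R grafts from antibody staining, which detects protein rather than transcript. The share of leukocyte RNA in the signals of the 3 leukocyte adhesion genes was not tested.

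Other marker lists varied in direction. Of 11 macrophage and monocyte markers, 5 had higher and 6 lower mean signals, with a median of -0.023 and summed signals of 9382 to 13270 units in I/R and 9232 to 13143 in non-I/R. This median was -0.26 without non-I/R 2 and 0.22 without non-I/R 1. In this list 1 gene passed as higher by limma, the receptor of inflammatory monocytes Ccr2 (log2 fold change 0.72, unadjusted p 0.024). Of all probe sets, 7.64% passed as higher and 7.35% as lower. Of 11 T and NK cell markers, 1 had a higher and 9 a lower mean signal, and the median was -0.11. Their summed signals were low, 538 to 630 units in I/R and 596 to 663 in non-I/R. In this list 1 gene passed as lower by limma, Cd8a (log2 fold change -0.11, unadjusted p 0.011). Its signals, between 6.06 and 6.19, were below the lowest array median of 6.58. Cd3d, which defines T cells, had the same value on all 5 arrays. For 5 B cell markers the median was 0.27, with summed signals of only 251 to 343 units in I/R and 243 to 252 in non-I/R. The mean of the B cell markers was higher in every I/R graft than in both non-I/R grafts, and their median was 0.081 without non-I/R 2. Platelets carry P-selectin and Icam2, and the 6 platelet markers had summed signals of 3822 to 10212 units in I/R and 4513 to 4525 in non-I/R. I/R 2 was the highest and I/R 1 the lowest graft for the mean of these markers, and the platelet chemokine Ppbp had 10.93, 12.70 and 11.49 in I/R 1 to 3, against 11.26 and 11.42 in non-I/R 1 and 2. The median of the platelet markers was 0.27 and turned to -0.18 without I/R 2, the graft in which Itgam, Itgal, Selplg, Pecam1, Cdh5, Icam1 and Sele also had their highest signals. Whether platelet or leukocyte RNA had a part in those signals was not tested.

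**Figure D3:**
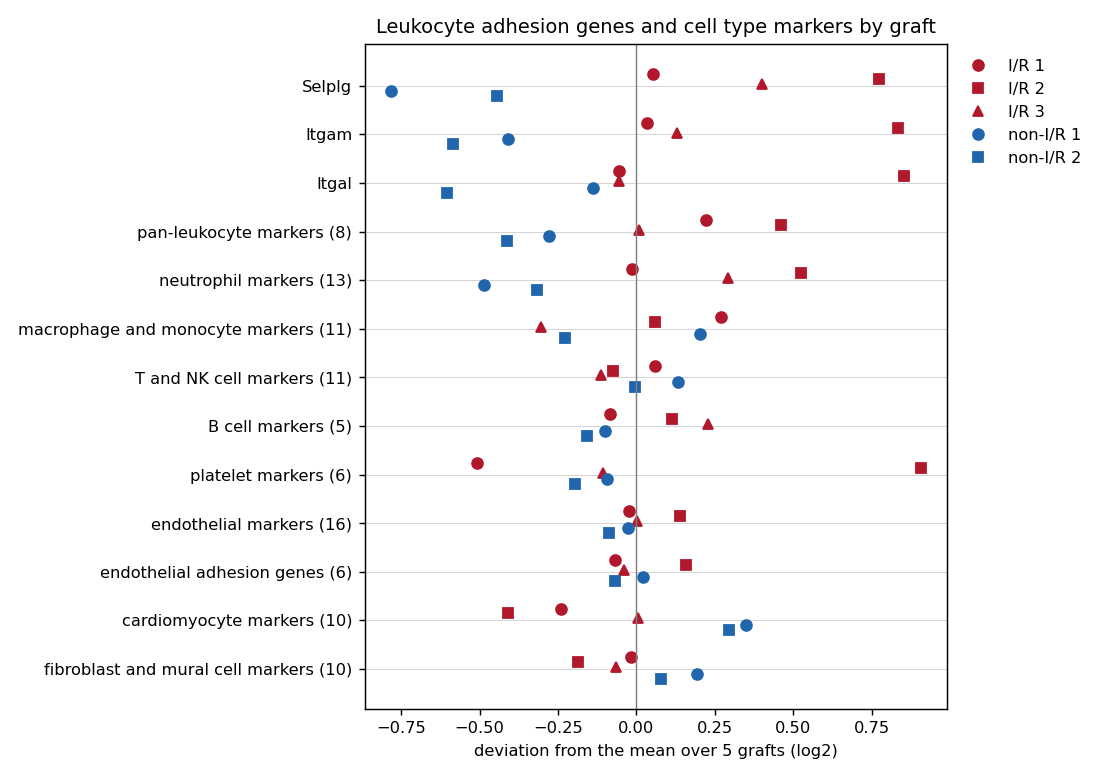
Deviation of each graft from the mean over the 5 grafts (log2, x axis), for the 3 leukocyte adhesion genes and for the mean of each marker list, with the number of measured genes in parentheses (y axis). Red points are I/R grafts and blue points non-I/R grafts. I/R grafts lie right of both non-I/R grafts for Selplg, Itgam, Itgal, pan-leukocyte, neutrophil and B cell markers and, narrowly, endothelial markers, and I/R 2 is at 0.91 for platelet markers.

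The 3 leukocyte adhesion genes were also set against the mean of marker lists within each array. The neutrophil mean includes Mpo, Elane, Camp and Ltf, whose log2 fold changes lay between -0.13 and 0.092. Their signals, between 5.18 and 6.26, were below the lowest array median of 6.58 and hold the change of that mean down. Differences against a neutrophil mean without these genes were not tested. After subtraction of the mean of the 13 neutrophil markers, Selplg deviated by 0.067, 0.25 and 0.11 in I/R 1 to 3, against -0.30 and -0.13 in non-I/R 1 and 2. The difference between the groups was 0.35, and no I/R graft overlapped a non-I/R graft (exact two-sided permutation test, p = 0.1, the smallest possible). Against the 8 pan-leukocyte markers the difference was 0.44, but I/R 1, at -0.17, lay below non-I/R 2, at -0.032 (exact permutation p = 0.3). Itgam differed by 0.16 against neutrophil markers (exact permutation p = 0.5) and by 0.25 against pan-leukocyte markers (p = 0.4 in the same exact test). Itgal differed by -0.049 and 0.043 against these lists, with exact permutation p of 0.7 and 1. Against the 11 macrophage and monocyte markers, Selplg differed by 1.00025, Itgam by 0.81 and Itgal by 0.60, each with an exact permutation p of 0.2. All I/R grafts lay above both non-I/R grafts, but 2 of these separations were nearly ties. Selplg deviated by -0.2158 in I/R 1 and -0.2162 in non-I/R 2. Itgal deviated by -0.323 in I/R 1 and -0.342 in non-I/R 1. These subtractions, 15 in all with those for the endothelial genes, were chosen after the signals had been seen, and with 5 arrays none could reach 0.05, so no adjusted value is given.

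Endothelial markers, taken without the adhesion genes, had a median log2 fold change of 0.10 over 16 genes (0.049 without non-I/R 2). Of these, 10 had higher and 6 lower mean signals. By limma, 1 of the 16 passed an unadjusted p of 0.05 as higher, the transcription factor Erg (0.37, p 0.017), against 7.64% of all probe sets. Summed signals of the list lay between 13758 and 15666 units in I/R and between 13154 and 13929 in non-I/R. The mean of these markers deviated by -0.025, 0.14 and 0.0019 in I/R 1 to 3, against -0.027 and -0.088 in non-I/R 1 and 2, so that the groups were separated by a narrow margin. The mean of this list was subtracted from each endothelial adhesion gene in the same array. Vcam1 then differed by -0.28 (exact permutation p = 0.3) and Icam2 by -0.16 (exact permutation p = 0.2), with all 3 I/R grafts below both non-I/R grafts for Icam2. Sele, Icam1, Pecam1 and Cdh5 differed by 0.020, 0.044, 0.022 and 0.032, all with overlapping groups. Markers of cardiomyocytes, the bulk of the tissue, were lower in I/R, with a median of -0.52 over 10 genes. Of the 10, 8 passed as lower, against 7.35% of all probe sets. Fibroblast and mural cell markers had a median of -0.25, with 3 of 10 higher and 7 lower. The part of these differences in the signals of the adhesion genes was not tested.

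Other genes of the adhesion steps were followed in lists. Of 18 measured genes for selectins, their ligands and the enzymes that build the ligands, 10 had higher and 8 lower mean signals. Their median was 0.049 (0.013 without I/R 2). At an unadjusted p of 0.05 by limma, 1 passed as higher and 3 as lower, against 7.64% and 7.35% of all probe sets. The 1 higher was Cd44, the hyaluronan receptor that also serves as a ligand of E-selectin, with 9.74, 10.23 and 10.01 in I/R 1 to 3, against 8.999 and 9.071 in non-I/R 1 and 2. Its log2 fold change was 0.96 (SE 0.17, unadjusted p 0.0051, adjusted p 0.28 by limma). Cd44 and Selplg thus both had higher signals in every I/R graft, while Sele, which binds both products, differed by 0.12. The lower ones were the galactosyltransferase B4galt1 (-0.28, p 0.0096), the mucosal addressin Madcam1 (-0.44, p 0.013) and Glg1, which encodes the E-selectin ligand ESL-1 (-0.30, p 0.022). Madcam1 had 6.12, 6.19 and 6.23 in I/R 1 to 3, against 6.76 and 6.48 in non-I/R 1 and 2. All of these but non-I/R 1 were below the lowest array median of 6.58. Gcnt1, an enzyme that builds the branched sugars on PSGL-1, had 9.001, 9.40 and 8.85 in I/R 1 to 3, against 7.59 and 8.75 in non-I/R 1 and 2, and its log2 fold change of 0.91 did not pass (unadjusted p 0.10).

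Among 17 other immunoglobulin-type adhesion and transmigration genes, 9 had higher and 7 lower mean signals and 1 had equal means. Their median was 0.053 (0 without I/R 2). Against 7.64% of all probe sets, 3 of the 17 passed as higher by limma. They were the activated leukocyte adhesion molecule Alcam (0.47, p 0.0028), the poliovirus receptor Pvr (0.82, p 0.021) and the endothelial and mural adhesion molecule Mcam (0.82, p 0.028). Mcam had 10.43, 11.003 and 10.79 in I/R 1 to 3, against 9.71 and 10.13 in non-I/R 1 and 2. Of 13 partners of the endothelial junction, 5 had higher and 8 lower mean signals, with a median of -0.061 (0.024 without non-I/R 1). Of these 13, 1 passed by limma, plakoglobin, Jup, as lower (-0.43, p 0.026), against 7.35% of all probe sets. Plakoglobin is also a protein of cardiomyocyte intercalated discs. The catenins that hold VE-cadherin, Ctnnb1 and Ctnnd1, had 0.036 and -0.0022, and the phosphatase Ptprb, which acts on VE-cadherin and Tek, had -0.20 (p 0.094).

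Of 19 cytokine-responsive and NF-kappaB genes, 17 were higher on average in I/R, and the median was 0.34. By limma, 3 of the 19 passed as higher and 0 as lower, against 7.64% and 7.35% of all probe sets (15% in either direction). The 3 were the NF-kappaB subunit Nfkb2 (0.71, p 0.025), the cholesterol hydroxylase Ch25h (0.67, p 0.026) and Tnfaip2 (0.53, p 0.029). Nfkb2 had 9.34, 9.92 and 9.50 in I/R 1 to 3, against 8.88 and 8.88 in non-I/R 1 and 2. Groups were separated in 4 of the 19 genes, all higher in I/R, against 15.8% of all probe sets. The other genes of the list overlapped, as Icam1, Vcam1 and Sele did. The inhibitor Nfkbia had 10.004, 10.78 and 10.11 in I/R 1 to 3, against 10.05 and 9.71 in non-I/R 1 and 2, and the neutrophil chemokine Cxcl1 had 8.21, 9.48 and 8.77, against 8.63 and 8.13, both with overlapping groups. The median of this list was 0.12 without I/R 2 and 0.45 without non-I/R 1.

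**Figure D4:**
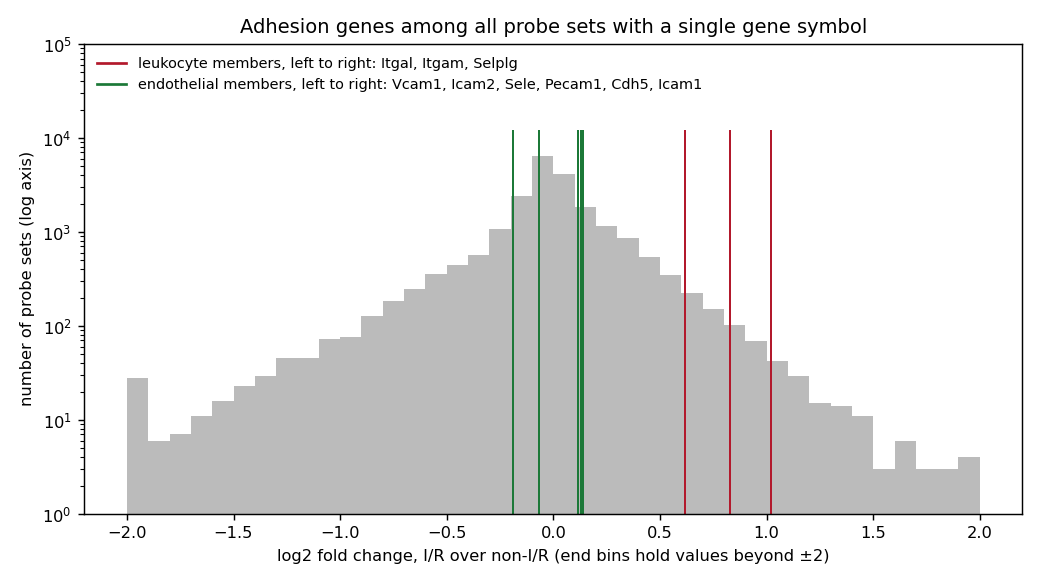
Number of probe sets (y axis, log scale) by log2 fold change of I/R (n = 3) over non-I/R grafts (n = 2) (x axis) for all 21789 probe sets tested in grey (end bins hold values beyond the axis), with the leukocyte adhesion genes as red lines and the endothelial ones as green lines. The red lines stand at 0.62, 0.83 and 1.02 on the upper flank and the green lines between -0.19 and 0.14 near the centre.

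The position of the genes among all probe sets differed between the sides. A higher log2 fold change than that of Selplg, Itgam and Itgal was found in 0.55%, 1.23% and 2.87% of all probe sets, and than that of Icam1, Cdh5, Pecam1 and Sele in 21.0%, 22.0%, 23.0% and 23.2%. For Icam2 and Vcam1 the share was 67.2% and 83.7%.

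The probe sets nearest in pattern were looked up for the 5 genes whose signals spanned over 0.5 across the 5 grafts, by the root mean square (rms) difference between deviations from each probe set's own mean. Nearest to Selplg were Spred3, the non-muscle myosin heavy chain Myh9 and haptoglobin, Hp, with rms differences of 0.060, 0.067 and 0.076. Nearest to Itgam were Siglece, an inhibitory receptor of myeloid cells, Ncf1, a subunit of the phagocyte oxidase, and B430306N03Rik, with 0.049, 0.050 and 0.078. Nearest to Itgal were Pappa, the NF-kappaB feedback gene Tnfaip3 and the early gene Egr1, with 0.067, 0.078 and 0.083. For Vcam1 they were Nipal3, Tmem229b and Ift27 (0.018, 0.038 and 0.041), and for Cdh5 Ltb, Olfr483 and Adcy4 (0.029, 0.031 and 0.033). Each probe set has only 5 values, and 21789 were searched. Whether these matches are closer than unrelated probe sets would give was not tested.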

How the data were processed

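The authors hybridised RNA of each graft to 1 Affymetrix Mouse Gene 1.0 ST array and deposited log2 values made with RMA in Partek (versions not given in the sources used here). RMA subtracts background, gives all arrays 1 distribution of values and combines probes into probe sets. Array medians lay between 6.58 and 6.65, and the number of arrays limits the precision. The build behind the annotation is not given in the sources used here.

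Symbols were updated through gene IDs by a RefSeq table of GRCm38.p6 (99.6% found). Of 35556 probe sets, 21789 had a single symbol and were tested, 1621 had several and 12146 were not listed. Groups were compared with limma 3.58.1 in R 4.3.3 (lmFit, eBayes, prior df 0.82), with p-values adjusted by the Benjamini-Hochberg method over all tested probe sets. Calls were made at an unadjusted p of 0.05, alone or together with 2-fold. The study sets significance at 0.05 and used it together with 2-fold for its 2-fold gene list. Of the tested probe sets, 757 had the same value on all arrays. Members, the 14 companion lists (177 of 186 genes measured) and tests were chosen with earlier results of these arrays known. Named genes are the 9 measured members, from each list at most 3 genes, those of smallest p, and genes with a defining role, and the 3 nearest in pattern. Other genes in the text were added after their values were seen. Lists leave out the members, and the brightest probe set stands for a gene. Alternatives were a plain t-test, other eBayes settings, array weights, other normalizations, other sets of probe sets and arrays left out. Steps were tested on simulated data. The protein comparison that had been planned was not run. Plots used matplotlib 3.10.9 in Python 3.11.15.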

Additional observations from a re-analysis of the deposited data

How the results depend on the processing

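The median log2 fold change of the 9 genes stayed within the spread of the grafts in all 17 other settings (0.071 to 0.21 with 1 graft left out). The number of genes past an unadjusted p of 0.05, 1 with limma, was 2 with a mean-variance trend, array weights, arrays centred on their median, quantile normalization, without the dimmest probe sets and without probe sets equal on all arrays, where Itgam passed beside Selplg. It ranged from 0 to 2 with 1 graft left out and was 4 (Itgam, Itgal, Icam1 and Sele, without Selplg) with non-I/R 1 and I/R 2 left out together, a fit of 2 grafts against 1. The number at both 2-fold and an unadjusted p of 0.05, 1, stayed at 1 without I/R 1 and was 0 without I/R 2 and 0 without I/R 3. The number of genes with separated groups, 3, ranged from 3 to 6 with 1 graft left out. It was 5 with non-I/R 1 and I/R 2 both left out, since fewer grafts separate more easily. Of the log2 fold changes, those near 0 changed sign: with 1 graft left out Cdh5 ranged from -0.015 to 0.28, Pecam1 from -0.0038 to 0.21 and Icam2 from -0.11 to 0.0090, and Cdh5 was -0.048 with both left out. The methods name ANOVA for the arrays, which for 2 groups equals the plain t-test run here. That t-test called 9.24% of all probe sets, where limma called 15%, and of the adhesion genes it called Selplg. With a single non-I/R graft left, its spread is assumed to be that of the I/R grafts. No paired analysis was possible because the labels give no replicate numbers shared between the groups.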
